A study of Mus musculus with 12 samples.

Results

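The genes described here are the matrix metalloproteinases (MMPs) Mmp2, Mmp3, Mmp11, Mmp13, Mmp14 and Mmp19 and the tissue inhibitors of metalloproteinases Timp1, Timp2, Timp3 and Timp4. They were chosen by name, and they are 10 of the 25655 genes listed for each tissue. MMPs are zinc enzymes of stromal cells that cut collagens, proteoglycans and other matrix proteins. They are made as inactive proenzymes in which a cysteine of the propeptide blocks the catalytic zinc, a contact known as the cysteine switch. TIMPs are small secreted proteins whose first cysteine binds the same zinc and closes the active site, and in muscle and bone the balance of both families bears on collagen turnover.

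The RNA came from PDGFRα+ stromal cells of mice, sorted from muscle and from bone, and was read with a 3' mRNA-seq chemistry that counts transcript ends. Knockout samples (3 from muscle and 3 from bone) carried PDGFRα-CreER, a Cre recombinase active after tamoxifen in cells that use the Pdgfra promoter, and Esr1flox/flox, that is, 2 floxed alleles of the estrogen receptor alpha gene. Of the 3 muscle controls, 2 carried PDGFRα-CreER alone and 1 carried PDGFRα-CreER with Esr1flox/+. Of the 3 bone controls, 2 carried PDGFRα-CreER alone and 1 carried Esr1flox/flox without Cre. Both sorts kept PDGFRα+ cells that lacked CD45 and CD31, and the muscle sort also removed cells with Vcam1. The series title names female mice. The labels do not give ages or say whether samples came from separate animals, so a p-value here covers the spread between these samples alone, which may be technical.

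The values are the authors' own comparison of knockout with control in each tissue. No per-library column could be tied to a sample, so values per sample, standard deviations and depths are not given. A log2 fold change is knockout over control, and a positive one is higher in the knockout. The tables give 1 level per gene, that of whichever group (knockout or control) had the higher mean, here called the group mean. The tables do not name its unit or say whether it is divided by length. A gene was called at the authors' false discovery rate (FDR) under 0.05. An interval given below is the 95% interval that the deposited fold change and p imply under a normal approximation.

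For each gene an annotated transcript encodes the zinc-binding site (MMPs) or the leading cysteines of the inhibitor (TIMPs). Counts of transcript ends do not show which transcript of a gene was measured. The codons of the zinc-binding site are shown because TIMPs act there. Capitals mark the codons of the 3 histidines that hold the zinc, and each stretch lies in 1 exon of the GENCODE transcript on GRCm38.
Mmp2: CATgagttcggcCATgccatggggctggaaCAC
Mmp3: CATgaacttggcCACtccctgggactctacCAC
Mmp11: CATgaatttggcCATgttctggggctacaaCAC
Mmp13: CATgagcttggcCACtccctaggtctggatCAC
Mmp14: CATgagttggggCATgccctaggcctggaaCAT
Mmp19: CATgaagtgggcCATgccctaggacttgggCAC
All 6 genes had the same base at 17 of the 33 positions. Pairs of genes were 63.6% (Mmp14 and Mmp3) to 81.8% (Mmp14 and Mmp2) identical over this stretch.

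The partner of this site on the inhibitors is the start of the mature protein. It is shown for the 4 TIMPs, with the codons of its leading pair of cysteines in capitals.
Timp1: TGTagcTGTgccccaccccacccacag
Timp2: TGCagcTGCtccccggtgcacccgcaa
Timp3: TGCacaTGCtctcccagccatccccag
Timp4: TGCagcTGTgcgcctgcgcacccccag
Of 27 positions, 14 held the same base in all 4 genes. The codons of the cysteine switch, searched as Pro-Arg-Cys-Gly, any residue, Pro-Asp, were found in Mmp2, Mmp3, Mmp13 and Mmp14, and this spelling was not found in Mmp11 or Mmp19.

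In muscle the inhibitors Timp2 and Timp3 had the highest levels of the 10 genes in the unit of the table, followed by Mmp2, Mmp14 and Mmp3. Timp2 had a group mean of 2505 per the authors' deposited table, rank 62 of the 13158 genes above 0, and Timp3 had 1568, rank 99. Timp2 is the inhibitor that bridges MMP14 and proMMP2 on the cell surface, and Timp3 is the one that stays bound to matrix. Mmp2, the gelatinase A gene, had 692, and Mmp14, which encodes the membrane enzyme that activates proMMP2, had 488 per the authors' deposited table. All 3 genes of that surface complex were thus within the top 2.59% of muscle genes above 0 (0.471% for Timp2, 1.84% for Mmp2 and 2.59% for Mmp14). Mmp3, the stromelysin 1 gene, had 291, Mmp19 68.3 and Timp1, a soluble inhibitor, 62.0 per the authors' deposited table. Mmp13, the collagenase 3 gene, had 24.8, Mmp11, the stromelysin 3 gene, 11.4 and Timp4 3.40 per the authors' deposited table. Without a spread per group, neighbours in this order cannot be told apart by a test.

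In bone the order was different, led by Timp3, Timp2 and Mmp13. The authors' deposited table gave Timp3 a group mean of 294 (rank 249 of 10518 genes above 0), Timp2 135 (rank 526) and Mmp13 102 (rank 717). Mmp14 had 50.1, Mmp3 45.2, Mmp11 36.4 and Timp1 34.0 per the authors' deposited table. Mmp2, at rank 242 in muscle, was at rank 4856 in bone with a group mean of 11.0 per the authors' deposited table. Mmp19 and Timp4 were listed at 0 per the authors' deposited table for bone, so neither has a fold change there. No source says that the 2 tables share a normalization, so the levels of a gene in muscle and in bone are set side by side and not compared.

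**Figure D1:**
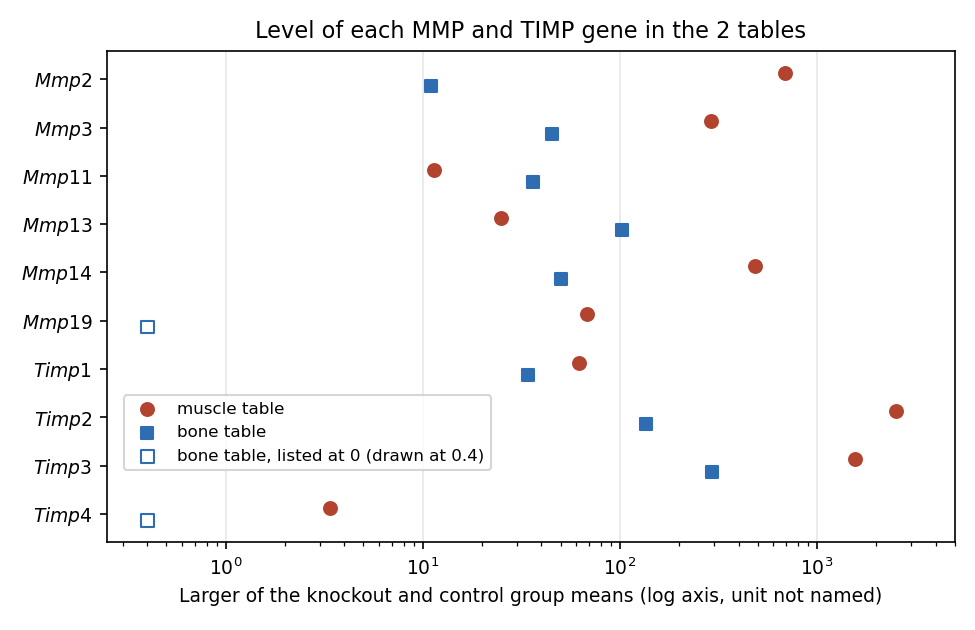
Group mean of each gene in whichever of knockout and control was higher (log axis, unit not named) in the muscle table (circles) and the bone table (filled squares). Open squares mark genes listed at 0 in bone, drawn at 0.4. Timp2 and Timp3 lead in muscle (2505 and 1568), and Mmp2 is at 692 in the muscle table and 11.0 in the bone table.

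The labelled cell type was checked against its markers. In muscle all 10 mesenchymal markers were above 0, with Pdgfra at a group mean of 494, Ptprc (CD45) at 0.781, Pecam1 (CD31) at 3.19 and Vcam1 at 53.7 per the authors' deposited table. In bone all 10 were above 0 too, but Pdgfra had 8.60, below the 23.1 of Ptprc per the authors' deposited table. Erythroid markers made up 0.342% of the summed group means in muscle and 58.6% in bone. For Esr1, the targeted gene, the authors' deposited table gave 1.02 in muscle (p = 0.404) and -2.69 in bone (p = 0.245), and it was called in neither. A 3' tag may lie outside the deleted part, so this does not check the labels.

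In muscle, no MMP or TIMP gene was called, and every MMP member had a positive log2 fold change. Of the 10 genes, 8 had an FDR and 0 passed in the authors' test, whose tool is not named, where 9 of 7107 genes passed (0.127%). At an FDR under 0.1 the count was also 0, beside 0.183% of all genes. At an unadjusted p under 0.05 there were 3, Mmp19, Mmp13 and Mmp14, all higher in the knockout, beside 6.41% of all genes with a p that were higher, 5.31% that were lower and 11.7% in either direction. All 6 MMPs and 3 of the 4 TIMPs had positive values, beside 53.5% of all genes. Over the 10 genes the median log2 fold change was 0.50, against 0.12 over all 13158 genes with a p. The MMPs had a median of 1.92, which lies between Mmp14 at 0.73 and Mmp11 at 3.10 per the authors' deposited table. The TIMPs had a median of 0.21. In bulk samples, fewer cells of a type and less RNA per cell cannot be told apart.

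The muscle proteases of high level had small positive values. The authors' deposited table put the fold change of Mmp14 at 1.66 (0.73 on the log2 scale, p = 0.0421, FDR = 0.787), with an interval of 1.02 to 2.70. Its partner Mmp2 stood at a fold change of 1.39 per the authors' deposited table (0.47 on the log2 scale, p = 0.128, FDR = 1.00), with an interval of 0.910 to 2.11. Mmp3, which cleaves proteoglycans and activates other proMMPs, stood at 1.34 per the authors' deposited table (0.42 on the log2 scale, p = 0.360), with an interval of 0.718 to 2.49. For Mmp2 and Mmp3 the intervals include no change, and they also include a doubling of the level. In all muscle genes with a group mean above 100 to 500, the range of Mmp14 and Mmp3, the implied standard error had a median of 0.53 on the log2 scale. Of these genes 7.49% had a p under 0.05. Above 500 to 1000, the range of Mmp2, the median was 0.33 and the share 12.4%.

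Mmp13, Mmp19 and Mmp11 had the largest positive values of the muscle members, at group means of 24.8, 68.3 and 11.4 per the authors' deposited table. On the log2 scale the authors' deposited table put Mmp13 at 8.90 (p = 0.00437, FDR = 0.280). Its interval ran from 2.78 to 15.01. Mmp19, whose product cuts basement membrane proteins, had 4.47 per the authors' deposited table (p = 0.00383, FDR = 0.275), with an interval of 1.44 to 7.50, and its transcript end is overlapped on the opposite strand by Tmem198b. Mmp11, whose proenzyme is activated inside the cell by furin, had 3.10 per the authors' deposited table (p = 0.139, no FDR), a fold change of 8.60 with an interval of 0.499 to 148. Mmp13 and Mmp11 had group means above 10 to 50, where 11.2% of 5068 muscle genes had a value beyond 4 in either direction. In that range 3.69% had a value beyond 8, as Mmp13 did, while Mmp11 at 3.10 was within 4. Among the 1534 genes above 50 to 100, the range that holds Mmp19, 0.326% were beyond 4. In the plot of all genes Mmp13 lies on the straight upper edge of the cloud, so 8.90 is not read here as the size of a change.

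Of the muscle TIMPs, Timp2 and Timp3 had values near 0 with short intervals. Timp2 stood at a fold change of 1.26 per the authors' deposited table (0.34 on the log2 scale, p = 0.229), with an interval of 0.864 to 1.84. Timp3 stood at 1.06 per the authors' deposited table (0.09 on the log2 scale, p = 0.782), with an interval of 0.691 to 1.64. These intervals are the narrowest of the 10 genes together with that of Mmp2, and a doubling of Timp2 or Timp3 lies outside them. Timp1 had -0.19 (p = 0.811) and Timp4 0.52 (p = 0.808) per the authors' deposited table, with wide intervals of -1.72 to 1.35 and -3.70 to 4.74. When values were set relative to the median of all genes, Timp3 took the opposite sign, -0.031, and the other 9 kept theirs. That median was positive (0.12), so the negative value of Timp1 could not reverse.

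**Figure D2:**
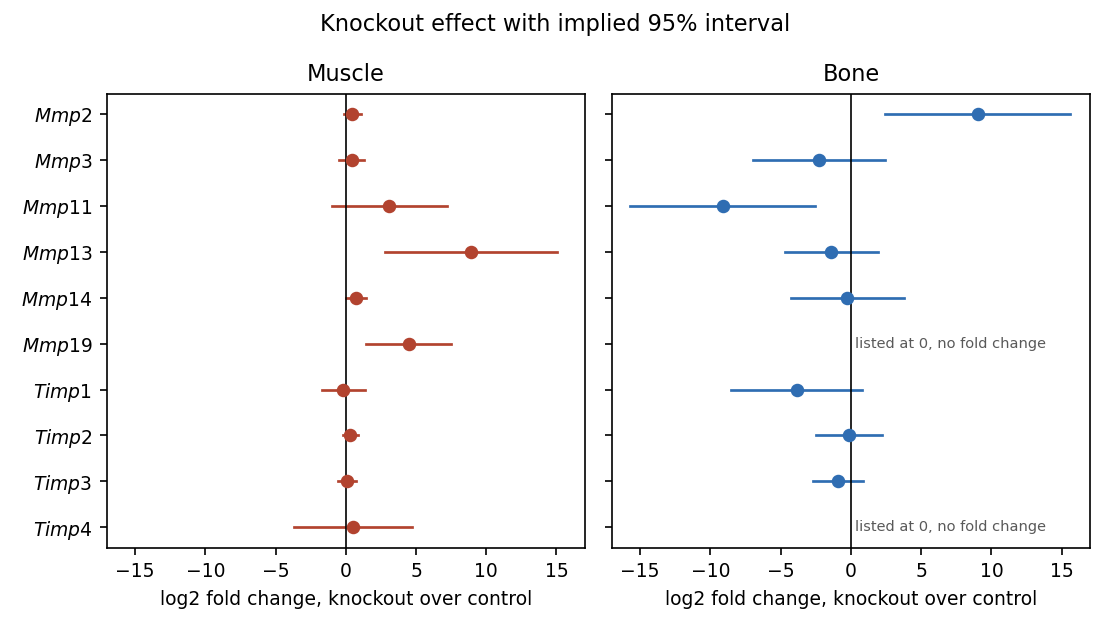
Log2 fold change of each gene, knockout over control (points), with the 95% interval implied by the deposited p (lines), in muscle and in bone. Timp2, Timp3, Mmp2 and Mmp14 have short intervals close to 0 in muscle, while Mmp13 in muscle and Mmp2 and Mmp11 in bone have values near 9 or -9 with intervals over 12 units wide.

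In bone, no member was called either, and 7 of the 8 measured genes had negative values. Of 8 genes with an FDR, 0 passed 0.05 in the authors' test, where 3 of 8534 genes passed (0.0352%). At an unadjusted p under 0.05 there were 2, Mmp2 higher and Mmp11 lower in the knockout, beside 28.8% of all genes with a p that were higher and 4.2% that were lower. The median over the 8 genes was -1.18, against 2.51 over all 10518 genes with a p, of which 69.7% had positive values. That background depended on level: 86.3% of genes with a group mean above 1 to 10 had positive values, 58.7% above 10 to 50, 38.3% above 50 to 100 and 48.4% above 100 to 500. The medians in these ranges were, in the same order, 6.39, 0.62, -0.50 and -0.03. All 8 measured members had group means above 10.

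Of the members, Mmp2 and Mmp11 had the largest bone values, in opposite directions. On the log2 scale Mmp2 stood at 9.01 per the authors' deposited table (p = 0.00723, FDR = 0.0784), with an interval of 2.44 to 15.58. Mmp11 had -9.14 per the authors' deposited table (p = 0.00655, FDR = 0.0784), with an interval of -15.73 to -2.55. At an FDR under 0.1, 32.2% of the bone genes passed and 2 of the 8 members did, Mmp2 and Mmp11, so a pass there is near the background. When p-values were adjusted over the genes with a group mean of at least 10 alone, Mmp11 had an adjusted p of 0.0499 and Mmp2 of 0.0504. The share of all bone genes that passed in that setting was not counted, so the pass is no result about Mmp11. Both genes lie on the straight outer edges of the cloud in the plot of all genes, and 23.4% of the 3410 bone genes with a group mean above 10 to 50 had a value beyond 8 in either direction.

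**Figure D3:**
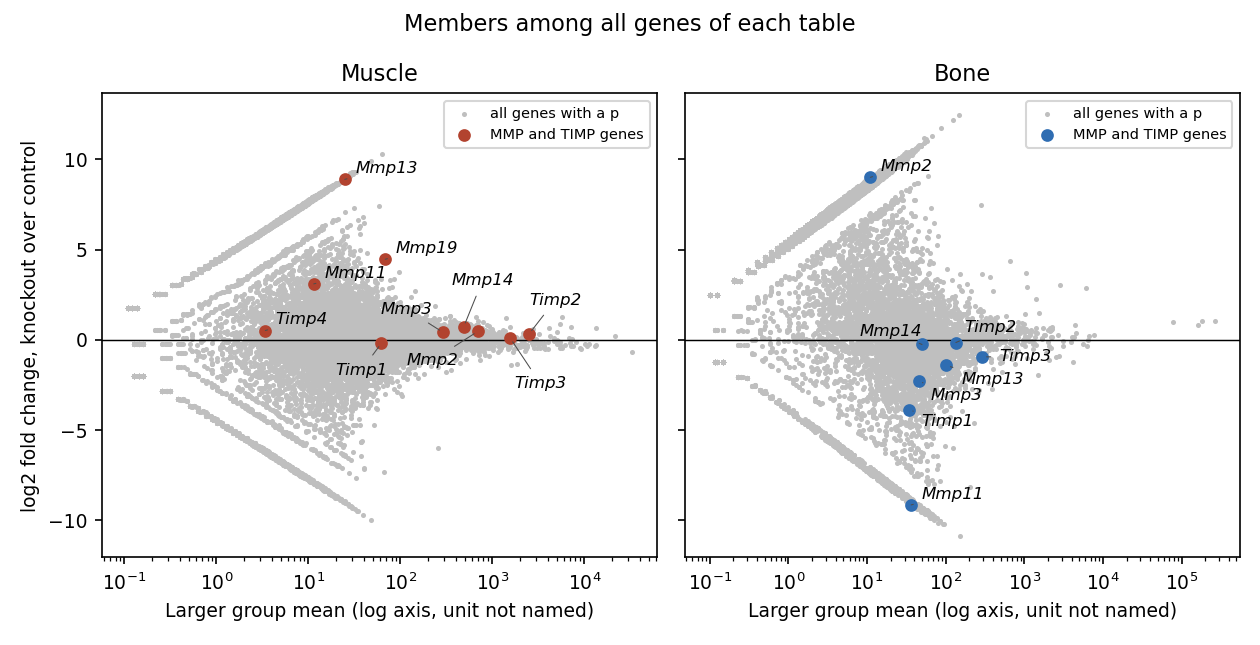
Log2 fold change, knockout over control, against the larger group mean (log axis, unit not named) for all genes with a p (grey) and for the MMP and TIMP genes (coloured, named), in muscle (13158 genes) and bone (10518 genes). Mmp13 in muscle and Mmp2 and Mmp11 in bone lie on the straight outer edges of the cloud, and no other member lies on these edges.

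The remaining bone genes had negative values from -0.14 (Timp2) to -3.87 (Timp1), with wide intervals. Mmp13, the collagenase of hypertrophic cartilage and osteoblasts, had -1.41 per the authors' deposited table (p = 0.402), with an interval of -4.72 to 1.89. Mmp3 had -2.28 (p = 0.338) and Mmp14 -0.25 (p = 0.903) per the authors' deposited table. Timp1 had -3.87 per the authors' deposited table (p = 0.106), with an interval of -8.56 to 0.82. The 2 inhibitors of highest level, Timp3 and Timp2, had -0.94 (p = 0.305) and -0.14 (p = 0.905) per the authors' deposited table. Their intervals, -2.73 to 0.85 and -2.47 to 2.19, leave room for a change of 4-fold or more in at least 1 direction. Markers of other cells were read from the same table: 10 of 10 neutrophil markers had positive values (median 3.70, 9 higher at a p under 0.05), as did 6 of 8 macrophage markers (median 5.04, 5 higher) and 6 of 6 erythroid markers (median 0.91, 0 higher). The neutrophil list includes the MMP genes Mmp8 and Mmp9. Of all bone genes, 69.7% had positive values and 28.8% were higher at a p under 0.05. At a group mean above 1 to 10, the range of the macrophage markers Adgre1, Csf1r, Cd68 and Mrc1, these shares were 86.3% and 55.3%. Among chondrocyte markers 6 of 7 had negative values (median -0.94), and the other, Col10a1, had 0.44 per the authors' deposited table. Osteoblast markers had positive values in 5 of 7 (median 1.07). So did 6 of 10 mesenchymal markers (median 0.72), 4 of 5 marrow stroma markers (median 1.57) and 3 of 4 pan-leukocyte markers (median 0.65). No marker of these lists was at 0. Their part in the values of the MMP and TIMP genes was not tested.

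The difference between the muscle and the bone effect was tested with muscle and bone samples taken as independent. Whether both came from the same animals is not in the labels. The test covered the 8 genes with a p in both tables. None passed after Benjamini-Hochberg adjustment over the 9598 genes with a p in both, where no gene passed (0%), and at an unadjusted p under 0.05 there were 3 of the 8 members, beside 24.6% of all genes. The normal-approximation test gave Mmp11 a muscle minus bone difference of 12.24 (standard error 3.96, adjusted p = 0.0911), from 3.10 in muscle and -9.14 in bone per the authors' deposited table. For Mmp13 that test gave 10.31 (standard error 3.55, adjusted p = 0.0942), from 8.90 in muscle and -1.41 in bone per the authors' deposited table. For Mmp2 it gave -8.54 (standard error 3.37, adjusted p = 0.112), from 0.47 in muscle and 9.01 in bone per the authors' deposited table. In each of these 3 differences at least 1 of the 2 values lies on an edge of the cloud. For Timp2 the difference was 0.48, with an interval of -1.92 to 2.87, and for Timp3 1.03, with an interval of -0.87 to 2.92.

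Mmp13 and Mmp3 belong to a row of 10 MMP genes within 427 kb of chromosome 9 on GRCm38, from Mmp13 (7272514 to 7283331) to Mmp7 (7692090 to 7699585). In muscle 3 of the 10 were above 0, namely Mmp13, Mmp3 and Mmp8, and in bone 4 were, the same genes and Mmp10. Values along the row ran both ways in bone. Mmp8, the neutrophil collagenase gene, had 12.17 in bone per the authors' deposited table (p = 4.63e-05, FDR = 0.0784), while Mmp10, Mmp3 and Mmp13 had -4.02, -2.28 and -1.41, none with a p under 0.05. The differences between neighbours were not tested, since they come from the same samples and values per sample are not given.

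**Figure D4:**
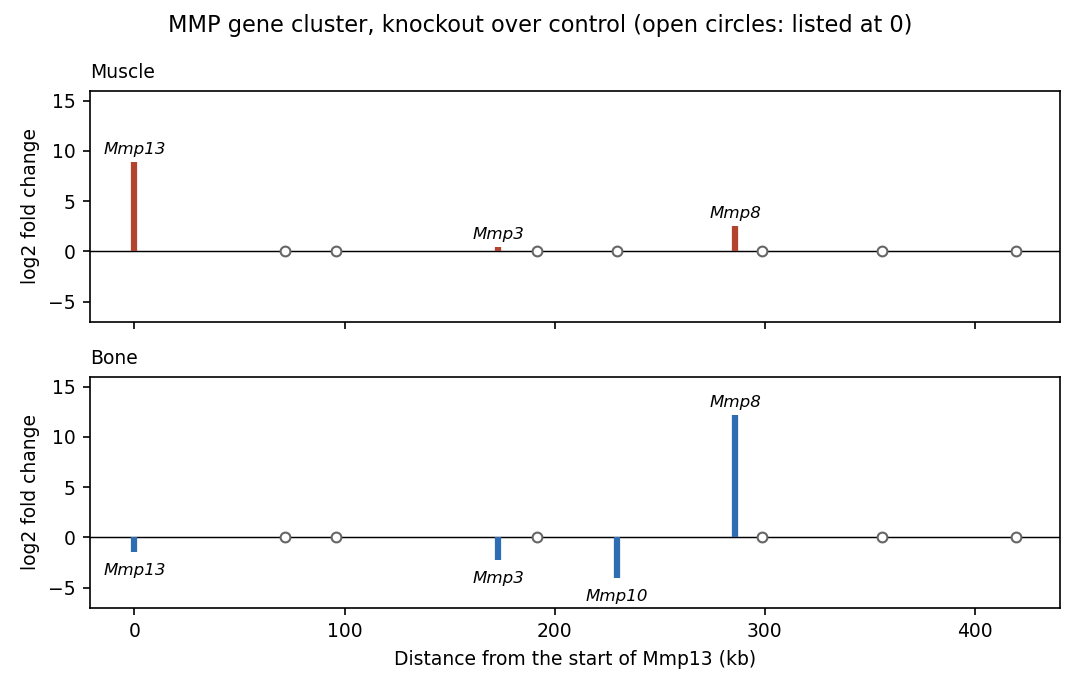
Log2 fold change, knockout over control, of the MMP genes of chromosome 9 by distance from the start of Mmp13 in kb, in muscle (top) and bone (bottom). Open circles are genes listed at 0; Mmp13 stands out in muscle (8.90) and Mmp8 in bone (12.17).

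Of the 10 genes, 8 had a promoter in the RefSeq set (GRCm38.p6, 300 bases around the start), and Mmp2 and Mmp19 had none there. The AP-1 motif TGANTCA, which reads alike on both strands and binds Fos and Jun dimers, was in the promoters of Mmp3 and Mmp13 and in 7.81% of 32851 promoters of the same length. The motif windows are shown because these 2 genes are classic AP-1 targets. The Mmp3 window is chr9:7445756-7445802 and the Mmp13 window chr9:7272459-7272505, both on the plus strand, and the capitals mark the motif, which begins 46 and 35 bases before the start.
Mmp3: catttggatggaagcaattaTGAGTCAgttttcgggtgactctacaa
Mmp13: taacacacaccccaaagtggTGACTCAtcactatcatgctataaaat
The full estrogen response element, GGTCA and TGACC set 3 bases apart, was in none of the 8 promoters and in 0.0700% of all promoters. The shorter sequence AGGTCA, searched on both strands, was in none of the 8 and in 16.3% of all, and it can overlap the full element. A motif match is a description of the window, and its absence says only that these letters are not in it. For muscle the authors' deposited table put Fos at -0.29 (p = 0.392), Jun at -0.67 (p = 0.0547) and Runx2, a factor of bone-forming cells, at 6.14 (p = 0.0643). For bone it put Fos at -0.96 (p = 0.232) and Jun at 1.43 (p = 0.171), also per the authors' deposited table. Of the 14 AP-1 and upstream factors, 1 had a p under 0.05 in muscle, Il1r1, the interleukin 1 receptor gene, at 1.70 (p = 0.0183), and 0 were called in either tissue per the authors' deposited table. In bone 3 of the 14 had a p under 0.05, all higher, beside 28.8% of all bone genes and 55.3% of those with a group mean above 1 to 10, so the count is no result about these factors. They were Runx2 at 8.04, Tgfb1 at 7.69 and Ets1 at 7.36 per the authors' deposited table, at group means of 7.27, 5.98 and 4.46.

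In muscle the genes of proteins that MMPs cut had mostly positive values. Of the 18 substrate genes with a p in muscle, 16 had positive values, beside 53.5% of all muscle genes, with a median of 0.66. Of the 17 with an FDR, 2 were called, both higher, beside 0.127% of all genes, and 8 of the 18 were higher at a p under 0.05, beside 6.41%. These were Col1a2, a type I collagen chain, at 1.27 (FDR = 0.00261) and Igfbp5, an IGF-binding protein, at 1.23 (FDR = 0.0180) per the authors' deposited table. The partner chain Col1a1 had 0.86 per the authors' deposited table (p = 0.000976, FDR = 0.204). Of the 19 substrate genes in bone, 10 had positive values, with a median of 0.00, and 0 were called. At a p under 0.05, 3 of the 19 were higher, beside 28.8% of all bone genes, namely Lamc1 at 8.87, Nid1 at 7.52 and Igfbp3 at 7.42 per the authors' deposited table. The mesenchymal markers share Col1a1, Col3a1 and Dcn with the substrates, so they are not a separate list. Of these markers 9 of 10 were positive in muscle, with a median of 0.58, and none was at 0. The 4 with a p under 0.05 were the shared genes and Pi16. Their part in the MMP values was not tested.

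Genes that activate or clear MMPs were called in neither tissue. Among 14 activators and inducers, 2 of the 12 with a p had a p under 0.05 in muscle, both higher, beside 6.41% of all genes that were higher and 11.7% in either direction. They were Ctsb, a lysosomal protease gene, at 0.71 (p = 0.0425) and Cd44, a hyaluronan receptor that docks MMP14, at 0.79 (p = 0.0493) per the authors' deposited table. Pcsk5, a proprotein convertase gene, had -1.26 per the authors' deposited table (p = 0.0564). In bone 2 of the 11 with a p were higher and 2 lower at a p under 0.05, beside 28.8% and 4.2% of all genes. Plat, the tissue plasminogen activator gene, had -9.23 (p = 0.00387), Plaur, the urokinase receptor gene, 8.76 (p = 0.00764) and Pcsk7, another convertase gene, -7.72 (p = 0.0172) per the authors' deposited table. The other higher gene was Plau, which encodes urokinase, at 7.54 per the authors' deposited table (p = 0.0240), named after its values were seen. Among 11 inhibitors and clearance genes, 0 had a p under 0.05 in muscle, beside 11.7% of all genes, where Serpinf1, which encodes the secreted serpin PEDF, had 0.57 (p = 0.0904) and Lrp1, the scavenger receptor of MMPs and TIMPs, 0.35 (p = 0.301) per the authors' deposited table. In bone Mrc2, an endocytic collagen receptor gene, had -8.60 (p = 0.00951) and Serpinf1 4.55 (p = 0.0486) per the authors' deposited table. Plat, Plaur, Pcsk7 and Mrc2 had bone group means above 10 to 50, where 23.4% of genes had a value beyond 8 in either direction.

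**Figure D5:**
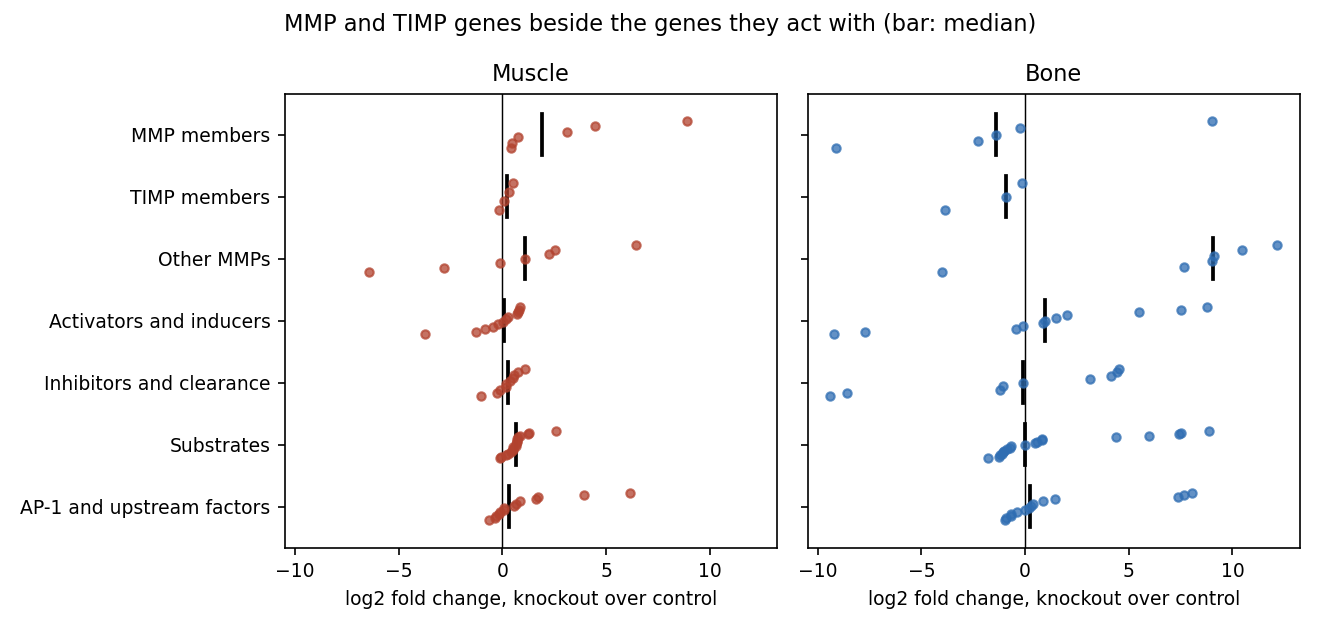
Log2 fold change, knockout over control, of each gene with a p in the MMP and TIMP genes and in the lists of related genes, in muscle and bone; black bars are medians. In muscle the MMP members (median 1.92, between Mmp14 at 0.73 and Mmp11 at 3.10) and substrates (0.66) lie mostly above 0. In bone the other MMPs lie highest (9.05). Of all bone genes with a group mean above 10 to 50, 23.4% had a value beyond 8 in either direction.

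The other 17 MMP genes were mostly listed at 0. In muscle 10 of them were listed at 0, and 0 were called; Mmp28 had -6.43 (p = 0.0433), Mmp15 6.42 (p = 0.0459) and Mmp16 -2.84 (p = 0.0844) per the authors' deposited table, at group means of 3.83, 4.44 and 38.5. In bone 11 were listed at 0 and 0 were called, while 5 of the 6 above 0 had a p under 0.05, all higher, beside the 28.8% of all bone genes. The smallest p belonged to Mmp8 and to Mmp9, the gelatinase B gene of neutrophils and osteoclasts, which had 10.45 per the authors' deposited table (p = 0.00211) at a group mean of 37.5. Both are also on the neutrophil marker list, whose group means summed to 35.5 in muscle and 12508 in bone, sums that are not compared. Mmp9 is on the osteoclast marker list too. In bone 3 of the 6 osteoclast markers were at 0, and Ctsk (-0.45) and Acp5 (-0.46) had negative values per the authors' deposited table. Mmp16, a membrane-type MMP gene, had 9.11 in bone per the authors' deposited table (p = 0.00584). Mmp9 and Mmp16 lie in the range above 10 to 50, where 23.4% of bone genes had a value beyond 8 in either direction.

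Several members share genome positions or transcript ends with other genes, and no source used here says whether the authors' counting used strand. Timp1, Timp3 and Timp4 lie inside the synapsin genes Syn1, Syn3 and Syn2 on the opposite strand. In muscle Syn1 and Syn3 were listed at 0 and Syn2 at 0.510, and in bone Syn1 had 7.64 and Syn2 and Syn3 were listed at 0, per the authors' deposited table. The end of Mmp19 is covered by Tmem198b on the opposite strand over 789 bases, and Tmem198b stood at a group mean of 82.9 in muscle with a value of 0.22 (p = 0.773) per the authors' deposited table. The last 300 bases of some Mmp14 and Mmp19 transcripts hold stretches of 50 bases or more that match the ends of 1164 and 1152 other genes, with longest matches of 201 and 202 bases, so reads there may be hard to place. The other 8 genes had no such match.

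The genes lie at these places on GRCm38, from GENCODE by gene ID. Mmp2 (ENSMUSG00000031740) is on chromosome 8 from 92827291 to 92853420, Mmp3 (ENSMUSG00000043613) on chromosome 9 from 7445822 to 7455975, and Mmp14 (ENSMUSG00000000957) on chromosome 14 from 54431612 to 54445364, all on the plus strand. Mmp11 (ENSMUSG00000000901) is on the minus strand of chromosome 10 from 75923222 to 75936496, and Mmp19 (ENSMUSG00000025355) on its plus strand from 128790910 to 128800824. Timp1 (ENSMUSG00000001131) is on chromosome X from 20870166 to 20874735 and Timp3 (ENSMUSG00000020044) on chromosome 10 from 86300372 to 86349506, both on the plus strand. Timp2 (ENSMUSG00000017466) is on chromosome 11 from 118301069 to 118355740 and Timp4 (ENSMUSG00000030317) on chromosome 6 from 115241892 to 115252205, both on the minus strand. Mmp13 has the identifier ENSMUSG00000050578.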

How the data were processed

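RNA was column-extracted and libraries were made with a QuantSeq 3' kit, per the labels' protocols. Builds GRCm38 and mm10 appear in the submitters' processing notes, and for the aligner, counter and test the names were not given in the sources used here. Of the 2 deposited tables, 1 per tissue, the authors' comparison was used: log2 fold changes, signed fold changes (a score), p-values and FDR p-values, per the file headers. The deposited group mean is a score without a named unit. The 48 per-library columns carry laboratory codes that match no label and were not used, so the planned count tests were not run.

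Members and lists were chosen with earlier results of these data known. Members were found by gene name; all 10 are named, and of each of 5 related lists the called genes and the 3 of smallest p in each tissue, except 1 gene that is not reported here. Standard errors were derived from each fold change and two-sided p under a normal approximation, and tissue differences were adjusted with Benjamini-Hochberg over 9598 genes (scipy 1.17.1). That approximation may be poor for genes near 0. Gene regions in the tables are identical to GRCm38 for only 564 of 25600 genes matched by ID, so positions come from GENCODE M21. Coding stretches come from GENCODE M21 transcripts and promoters from RefSeq. Transcript ends were compared with blastn over the last 300 bases against the last 500 of all transcripts. Alternatives were adjustment over all genes with a p, Bonferroni, looser thresholds, a minimum group mean, and centring on the median of all genes.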

Additional observations from a re-analysis of the deposited data

How the results depend on the processing

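No member was called in muscle under adjustment over every gene with a p or under the Bonferroni p. The same held with a group mean of at least 10 or 50 and at an FDR under 0.1. At an unadjusted p under 0.05 the muscle count was 3, beside 11.7% of all genes with a p. In bone the count of 0 stayed under adjustment over every gene with a p, under the Bonferroni p and at a group mean of at least 50. It was 1 (Mmp11) at a group mean of at least 10, where the share of all bone genes was not counted. The bone count was 2 at an FDR under 0.1, beside 32.2% of all bone genes with an FDR. At an unadjusted p under 0.05 it was 2, beside 33% of all bone genes with a p. The muscle median of 0.50 became 0.38 after centring on all genes, 0.47 at a group mean of at least 10 and 0.42 at 50. The bone median of -1.18 became -3.69 after centring and -0.60 at a group mean of at least 50. The bone centring took off 2.51, the median of all genes. Bone genes with a group mean above 10 to 50 had a median of 0.62, and those above 50 to 100 of -0.50. Of 18 values of single genes, only Timp3 in muscle reversed, to -0.031 after centring, and none of 100 settings weakened a call, since there was none. Only centring could change a value. It subtracted a positive median, 0.12 in muscle and 2.51 in bone, so a negative value could not reverse. No member passed the test of the tissue difference at a group mean of at least 10 or 50 in both tables. No paired analysis was possible because the columns carry no sample. Count tests, leaving out each replicate and other normalizations were not run for the same reason. The implied standard error had a median of 1.73 for muscle genes with a group mean above 10 to 50 and of 2.40 for such bone genes, which limits both; the cause of the wider bone values was not tested.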
